A study of Arabidopsis thaliana with 26 samples.

Results

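The first day of darkening in leaves of wild-type Arabidopsis thaliana, accession Col-0, was described from 6 of the 26 arrays of the series and from all 26676 rows of its table. The arrays were chosen by their titles: 3 of Col-0 leaves in light (day 0) and 3 of Col-0 leaves after 1 day in the dark. Plants grew in short days under white light. On each treated plant a fully expanded leaf on either side was enclosed in an opaque cover, while the rest of the rosette kept its cycle of light and dark. Leaf blades were taken at noon. A further 3 arrays in light and 3 at day 1 came from a PIF5 knockout (pif5-621 in the design text, pif5 below), grown and darkened in the same way. They serve as a second set of arrays and to test where the change differed between the genotypes. All 26 arrays entered the fit that estimates the spread of each row. These include Col-0 leaves after 3 and 6 dark days and pif5 leaves after 3, 6 and 12 dark days. Each such group had 3 arrays, except pif5 at day 12 with 2. Levels of the Col-0 groups at days 3 and 6 are also given below. The knockout was not checked through the level of PIF5. Plant age is not stated in the sources used. Nothing in the labels ties the replicates to separate plants or harvests, and the p-values below then measure only how far these samples differ among themselves, a spread that may be technical. Leaves in light were those of day 0, so darkness and the elapsed day cannot be told apart.

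A leaf that loses light stops photosynthesis and soon runs short of sugar, and it turns to stored starch, lipids and protein for energy. Phytochromes, the red-light receptors, revert to their inactive form in the dark, and phytochrome-interacting factors such as PIF5, basic helix-loop-helix transcription factors that they otherwise destabilise, then accumulate. A single leaf darkened on an otherwise lit plant goes on to senesce and exports its nutrients, whereas a wholly darkened plant keeps its leaves green for longer.

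The 6 arrays fell into their groups. Correlations over rows lay between 0.984 and 0.989 among arrays in light, between 0.983 and 0.987 among day 1 arrays and between 0.884 and 0.897 across the groups. Array medians were 4.31 or 4.32 on the log2 scale. The standard deviation of values over rows was 1.65 on each array in light and 1.57 or 1.58 on each day 1 array, so that levels were spread less widely after the dark day. The table holds no detection calls, so which of the low signals lie above background is not known. A change to or from a low level is given as the difference of the measured signals and may understate the change in RNA. The arrays measured whole leaf blades, in which fewer cells of a type and less RNA per cell cannot be told apart.

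Rows are cited by their identifier in the table, because the platform's gene names could not be shown to go with the values. Whether the identifiers stand beside the right values, and whether the labelled cRNA had the strand that the probes detect, could not be settled from the files. The levels below are therefore signals of rows, not shown to be levels of named leaf transcripts. Of 105 genes in 7 lists, 23 had a row listed with 1 gene. The 6 rows listed for nuclear photosynthesis genes, which leaf cells express strongly, lay between 3.39 and 9.05 in light with a median of 5.73. For 2 of the 6 the level was below the median of all rows, 4.31. None of them was higher at day 1 and 2 were lower. Both rows listed for chlorophyll synthesis genes were lower. Of 5 rows listed for dark- and starvation-induced genes 2 were higher and 1 lower, with a median change of 0.14. Of 7 rows listed for autophagy genes 1 was higher and 1 lower. The single row listed for a leaf senescence gene did not pass. Of 2 rows listed for guard cell and vascular genes 1 was lower, and no row was listed for the seed storage genes. Over all 23 rows 3 were higher and 7 lower, beside 19.4% and 18.8% of all rows. The leaf label is therefore taken as given, and no sequence is shown.

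One dark day changed a large part of the table. Of 26676 rows, 10196 or 38.2% differed from light (limma, adjusted p under 0.05), and 11870 had an unadjusted p under 0.05. Higher rows numbered 5180 (19.4%) and lower rows 5016 (18.8%). This balance is tied to the scaling, since the deposited arrays have nearly equal medians. Lower rows were the more numerous with arrays centred on their medians (5050 higher, 5112 lower), and higher rows with quantile normalization (5283 and 4783). The middle 50% of all changes ran from -0.21 to 0.27 on the log2 scale around a median of 0.05. The tail was longer downward: the 5th and 95th percentiles were -1.22 and 0.96, and the 1st and 99th were -2.46 and 1.94.

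**Figure D1:**
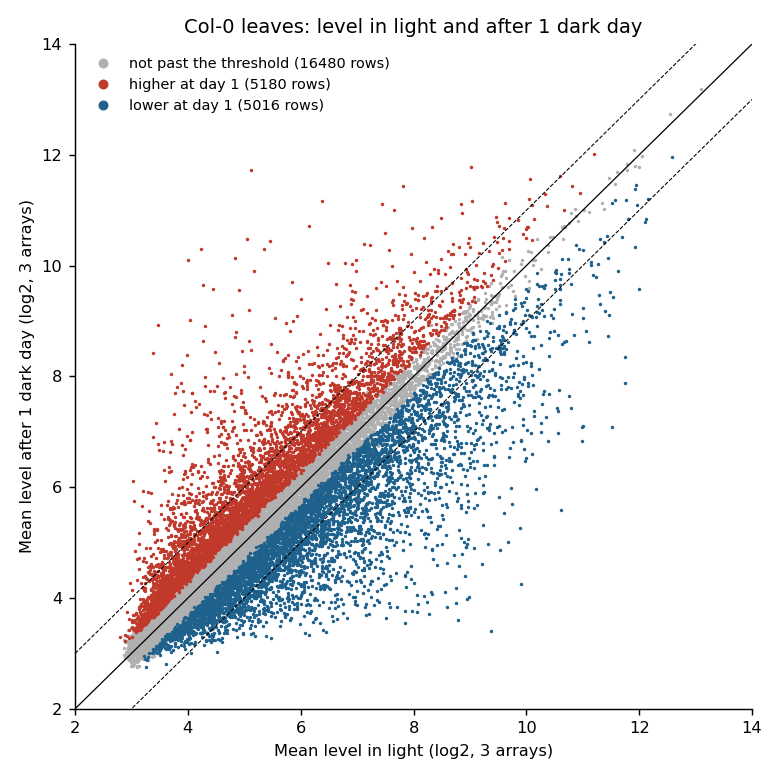
Each point is 1 row of the table, with its mean log2 level on the 3 Col-0 arrays in light (horizontal) and on the 3 arrays after 1 dark day (vertical). The solid line marks no change and the dashed lines 2-fold changes. Red rows were called higher (5180), blue rows lower (5016), and grey rows did not pass. Large rises start mostly on the left, under a level of 6, where most rows lie. Large falls start on the right, and the range of the signal limits falls from the left.

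Falls were larger than rises over most of the range of sizes. The median size was 0.80 among falls (middle 50%, 0.53 to 1.27) and 0.63 among rises (0.45 to 0.97). Changes of under 1.5-fold made up 45.2% of the rises and 30.6% of the falls. At least 2-fold changes numbered 3121 or 11.7% of all rows, 1223 upward and 1898 downward. At least 4-fold changes numbered 254 upward and 509 downward, and at least 8-fold changes 84 and 136. The order turned only at the largest size. At least 16-fold there were 24 rises and 37 falls, but at least 32-fold there were 9 rises and 4 falls. The 10 largest falls ended between 3.41 and 5.59, and the 10 largest rises began between 3.39 and 5.45. The range of the signal may limit the measured size of both, so this turn is not firm. The excess of falls depended in part on the scaling. With quantile normalization, which gives all arrays the same spread of values, the 2-fold counts were 1364 and 1702, the 8-fold counts 87 and 108, and the 16-fold counts 27 and 27. Rises of at least 32-fold then numbered 12 and falls 3.

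**Figure D2:**
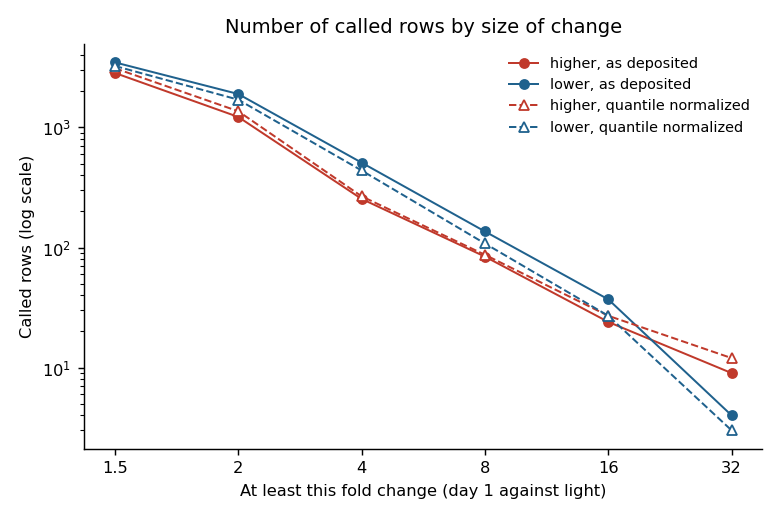
Called rows (vertical, log scale) that changed at least by the fold on the horizontal axis, in Col-0 at day 1 against light. Filled circles use the deposited values and open triangles quantile normalized values, red for higher and blue for lower. Falls outnumber rises up to 8-fold in both, and rises outnumber falls at 32-fold (9 against 4 as deposited).

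The spread between replicates was small beside these changes. The median SD of a row was 0.14 in light and 0.15 at day 1, and 90% of rows had an SD of at most 0.29 and 0.30. The median standard error of a change was 0.14. The smallest change that was called was 0.25, and only 1 row with a change of 2-fold or more did not pass. The 3 day 1 arrays did not overlap the 3 arrays in light at 12207 rows, 45.8% of the table, 6561 higher and 5646 lower. Groups of 3 arrays can also separate by chance at a row without a change. Among called rows the groups did not overlap at 94.5% of the rises and 95.3% of the falls, but calling itself favours such rows. A further 2535 rows did not overlap and were not called, and 524 were called although they overlapped. Taken singly against the mean in light, the 3 day 1 arrays had 1253 to 1317 rows at least 2-fold above it and 1835 to 1978 at least 2-fold below it. With each of the 6 arrays left out in turn, 3109 of the 3121 rows that changed at least 2-fold passed in the same direction every time, or 99.6%. Of all 10196 called rows 7527 did so, or 73.8%, so that calls lost with 1 array fewer were almost all under 2-fold.

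The direction of the early changes went with the level of a row in light. The level of a row also depends on its probes, so the bands used here order array signals and not amounts of transcript between genes. In the lowest band, under 4 on the log2 scale, 10.7% of 11779 rows rose and 1.79% fell. No row of this band fell by 2-fold. The lowest mean in light of any row was 2.79, so that the range of the signal itself limits falls in this band. From 4 to 6, 29.2% of 8681 rows rose and 23.2% fell. From 6 to 8 the falls prevailed, with 24.5% of 4836 rows higher and 40.4% lower. From 8 to 10, 16.1% of 1202 rows rose and 59.4% fell, and at 10 and over 7.87% of 178 rows rose and 71.3% fell. In that highest band 87 rows, 48.9%, were at least 2-fold lower and 3 were at least 2-fold higher. The median change went from 0.08 in the lowest band through 0.06, -0.14 and -0.59 to -0.95 in the highest.

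The level in light enters both the band and the change, so the bands were drawn again from the 3 pif5 arrays in light, which are not in the contrast. The shares of falls were then 2.47%, 22.6%, 39.3%, 59.7% and 71.5% from the lowest band to the highest. The shares of rises were 9.56%, 29.8%, 25.9%, 16.0% and 7.77%. The order of the bands was thus the same with levels from other arrays. With quantile normalization the falls were 2.60%, 23.1%, 35.8%, 52.6% and 63.5%, and the median change in the highest band was -0.74.

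**Figure D3:**
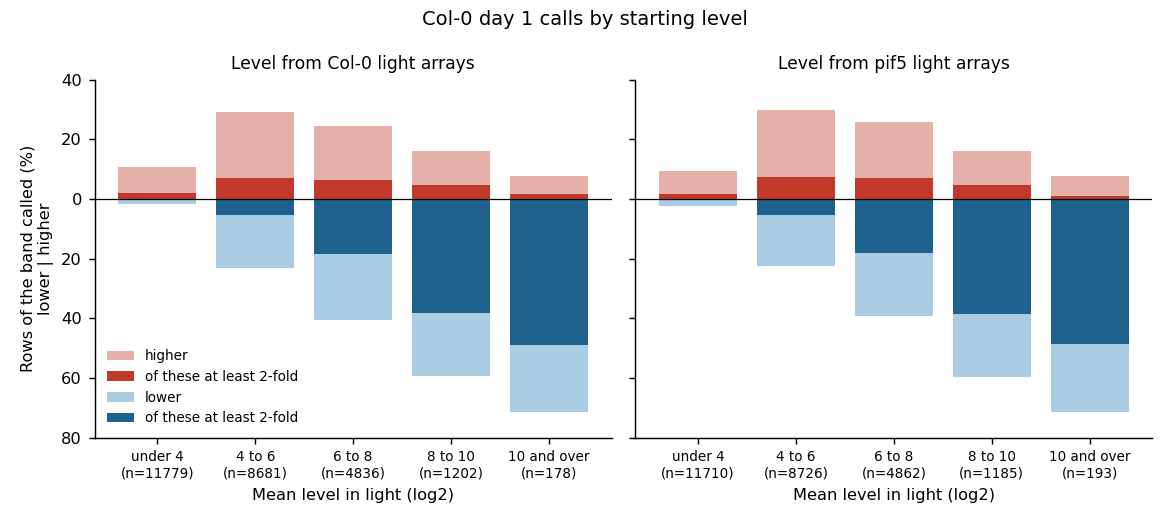
Percent of the rows in each band of light level (horizontal, log2, with the number of rows) that were called higher (red, upward) or lower (blue, downward) in Col-0 at day 1. Dark shades are the at least 2-fold changes. Bands are drawn from Col-0 arrays in light on the left and from pif5 arrays in light on the right. The share of falls grows from 1.79% to 71.3% on the left and from 2.47% to 71.5% on the right.

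The largest changes crossed most of the range of signals. The 84 rows that rose at least 8-fold began between 3.02 and 7.82, with a median of 4.58, and stood between 6.11 and 11.73 at day 1. Of these, 70 or 83.3% began under 6 and none at 8 or over. Most rows of the table also lay under 6 in light, 11779 under 4 and 8681 from 4 to 6. The 136 rows that fell at least 8-fold began between 6.45 and 11.75, with a median of 8.75, and ended between 3.38 and 8.35. Among them 98 began at 8 or over. The lowest mean in light of any row was 2.79, so a fall of this size could not begin near the bottom of the range. At every row of both sets the groups did not overlap. Rows that went from under 4 to 8 or over numbered 5, and 9 rows went the other way. Of the 178 rows at 10 or over in light, 73 were still there at day 1, when 141 rows in all stood at 10 or over.

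The 10 largest rises began between 3.39 and 5.45 in light and reached 8.43 to 11.73. Row 13478283 rose the most, from 5.0, 5.41 and 4.93 on the 3 arrays in light to 11.70, 11.63 and 11.85 at day 1. The change was 6.61 ± 0.28 on the log2 scale (SE), or 98.0-fold (limma adjusted p = 7.6e-17). The arrays of either group lay within 0.5 of each other, far less than the step between the groups. Row 13457167 went from 4.74, 3.65 and 4.33 to 9.88, 10.32 and 10.71, a rise of 6.07 ± 0.28 (SE; limma adjusted p = 5.6e-16). Its arrays were more widely spread in both groups, with SDs of 0.55 and 0.42. Row 13361487 began lower, at 3.29, 3.33 and 3.77, and reached 8.93, 8.63 and 9.22 (change 5.46 ± 0.29, SE; limma adjusted p = 8.5e-15). It had the largest rise among rows under 4 in light.

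Row 13474362 rose from 4.49, 5.30 and 5.35 to 10.48, 10.30 and 10.66, by 5.44 ± 0.19 (SE; limma adjusted p = 2.1e-18). Row 13493069 rose from 4.23, 4.23 and 4.36 to 9.29, 9.84 and 9.85, by 5.39 ± 0.30 (SE; limma adjusted p = 1.4e-14). Their gain was nearly equal, while the spread in light was 0.49 for the former and 0.07 for the latter (SD, n = 3). The other 5 of the 10 rises were rows 13533686, 13391927, 13516146, 13410651 and 13498760, with changes between 4.98 and 6.08. In higher bands of starting level the largest rises were smaller. Those bands also held fewer rows, 4836 from 6 to 8, 1202 from 8 to 10 and 178 at 10 and over. The highest value in the table, 13.37, leaves less range above a high start. Row 13543605 rose from 6.39 ± 0.54 to 11.16 ± 0.29 (SD, n = 3 each), row 13390334 from 9.03 ± 0.57 to 11.78 ± 0.08, and row 13450754 from 10.06 ± 0.31 to 11.57 ± 0.17. All 3 ended at 11 or above, as did row 13478283.

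The 10 largest falls began between 8.60 and 10.62 and ended between 3.41 and 5.59. Row 13508208 had the largest measured fall, from 9.31, 9.53 and 9.29 in light to 3.18, 3.30 and 3.74 at day 1. The change was -5.97 ± 0.21 (SE; limma adjusted p = 1.7e-18). Above 9 on each array in light, it lay below the array medians on each day 1 array, where it may be at background, so no fold is given. The order of falls among rows that ended this low is likewise not firm. Row 13452610 fell from 9.08, 10.55 and 10.11 to 4.60, 4.14 and 4.02, a change of -5.66 ± 0.33 (SE; limma adjusted p = 6.1e-14). Its replicate 1 in light lay below the other two, and the SD in light of 0.75 was the widest among the 10. Row 13468344 was the most tightly measured in light, at 10.62, 10.65 and 10.60, and fell to 5.82, 4.97 and 5.98 (change -5.03 ± 0.41, SE; limma adjusted p = 4.3e-11).

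Row 13516816 had the smallest adjusted p of the 20 rows, 2.0e-19 by limma, with 8.57, 8.52 and 8.69 in light and 3.81, 3.68 and 4.01 at day 1. Its change of -4.76 was one of the smaller ones among the 10, and its replicates differed by little in both groups. Row 13423234 fell from 8.77, 9.06 and 9.0 to 3.89, 3.71 and 4.35 (change -4.96 ± 0.31, SE; limma adjusted p = 3.0e-13). The other 5 were rows 13499109, 13470527, 13368650, 13374776 and 13358819, with changes between -5.19 and -4.66. In lower bands the range left below a row bounds its fall, so these are given as levels only. From 6 to 8 the largest was that of row 13367777, from 7.85 ± 0.50 to 3.55 ± 0.20 (SD, n = 3 each). From 4 to 6 it was that of row 13433827, from 5.98 ± 0.20 to 3.54 ± 0.25. Under 4 row 13479474 fell from 3.95 ± 0.14 to 3.07 ± 0.07. All 3 rows ended below the array medians.

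**Figure D4:**
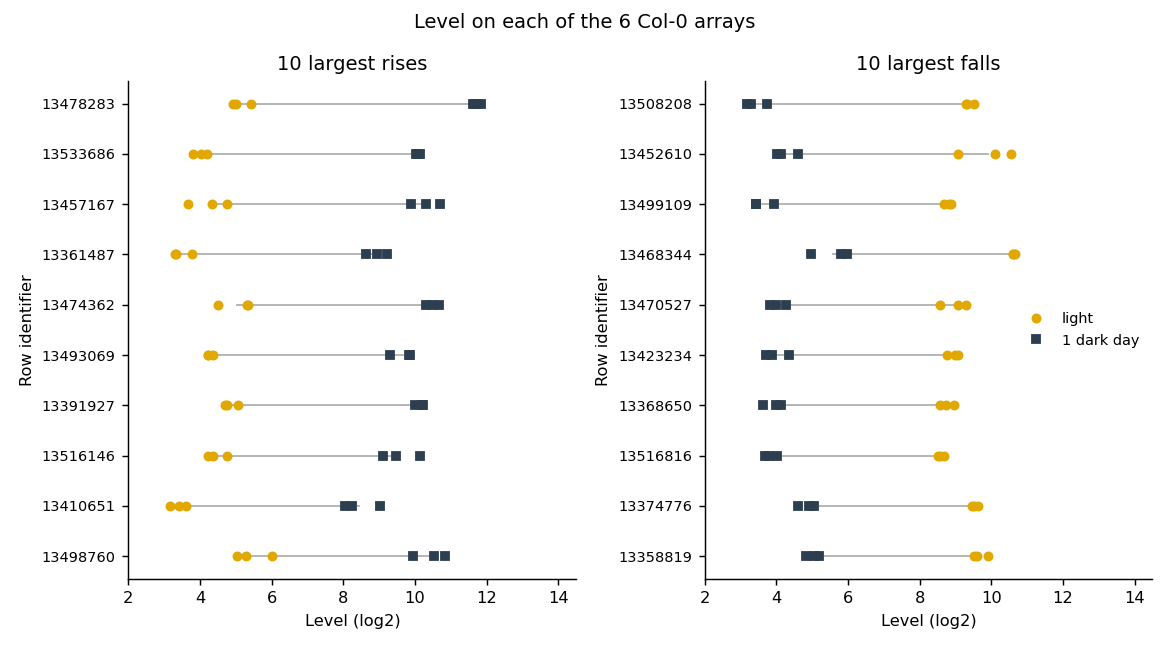
Log2 level (horizontal) on each of the 3 Col-0 arrays in light (yellow circles) and the 3 after 1 dark day (dark squares) for the rows with the 10 largest rises and the 10 largest falls (vertical, by identifier). Grey lines join the group means. The rows were chosen among those whose groups did not overlap. The rises start between 3.39 and 5.45 where the falls start between 8.60 and 10.62.

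Some rows with strong signal showed no call. Row 13545271, the highest row not past the threshold, read 13.27, 12.97 and 13.04 in light and 13.06, 13.11 and 13.37 at day 1 (change 0.09 ± 0.13, SE; limma adjusted p = 0.66). Its 13.37 is the highest value in the table, so the range of the signal may limit a rise of this row. Row 13455961 read 12.46, 12.45 and 12.72 in light and 12.88, 12.85 and 12.50 at day 1 (change 0.20 ± 0.13, SE; limma adjusted p = 0.24). It passed with quantile normalization, with a change of 0.31 (limma adjusted p = 0.033). Row 13392334 stood at 12.05 ± 0.05 in light and, a dark day later, at 11.98 ± 0.07 (limma adjusted p = 0.69; SD, n = 3 each). In each of these rows the groups overlapped.

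A few rows differed widely between replicates. An SD above 1 was found at 24 rows in light, of which 15 were called, and at 2 rows at day 1. In light the array farthest from the other two was replicate 1 at 11 of these rows, always on the low side, replicate 2 at 8 and replicate 3 at 5. Row 13399154 had the largest SD in light, 2.76, with 4.08, 8.98 and 4.32 against 3.82, 4.02 and 4.09 at day 1. It fell by 1.81 (limma adjusted p = 0.024), which rested on replicate 2. Without that array the change was -0.22 (limma adjusted p = 0.41), and it also failed in the fit of the 6 arrays alone (limma adjusted p = 0.15). Row 13521095 read 10.31, 6.73 and 9.94 in light and 7.08, 7.06 and 7.05 at day 1, so that replicate 2 in light lay near the darkened leaves. The change was -1.93 ± 0.48 (SE; limma adjusted p = 0.0016). It was -3.06 without replicate 2 in light (limma adjusted p = 6.2e-12) and -1.27 without replicate 1 (limma adjusted p = 0.031).

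At day 1 row 13529684 had the largest SD, 1.15, at 7.89, 9.18 and 6.88. All 3 values lay above those in light, 5.16, 5.13 and 4.90, and the rise of 2.92 ± 0.37 passed (SE; limma adjusted p = 1.7e-07). Row 13391347 read 5.94, 5.02 and 5.43 in light and 6.45, 6.89 and 4.79 at day 1, and did not pass (change 0.58 ± 0.31, SE; limma adjusted p = 0.15). Without day 1 replicate 3 the change was 1.21 (limma adjusted p = 6.4e-05).

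The median levels of the changed rows moved little further in Col-0 leaves darkened for 3 and 6 days. These groups are compared with the same arrays in light, so only levels are given. Rows at least 2-fold higher at day 1 had a median level of 5.12 in light, 6.86 at day 1, 7.02 at day 3 and 6.98 at day 6. Rows at least 2-fold lower had medians of 7.06, 5.25, 5.03 and 4.97. Among the 20 rows with the largest changes 3 went back by at least 2 on the log2 scale from day 1 to day 3. Row 13423234, at 3.98 ± 0.33 at day 1, stood at 8.43 ± 0.55 at day 3 and 8.30 ± 0.14 at day 6, close to its 8.95 ± 0.16 in light (SD, n = 3 each). Row 13468344 likewise went from 5.59 ± 0.54 at day 1 to 9.52 ± 0.40 and 9.30 ± 0.05. The deep fall of both was thus seen at day 1 alone among the days sampled. Row 13498760, at 10.44 ± 0.45 at day 1, stood at 8.12 ± 0.51 at day 3, still above its 5.45 ± 0.51 in light. Row 13529684, named above for its spread at day 1, was at 4.10 ± 0.40 at day 3 and 3.60 ± 0.46 at day 6, below its level in light of 5.06 ± 0.14.

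**Figure D5:**
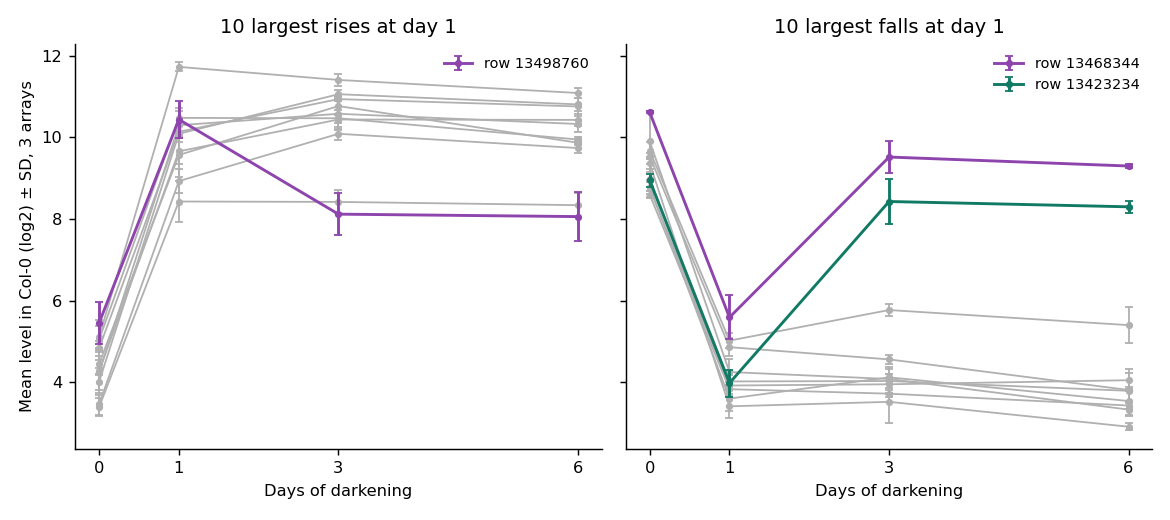
Mean log2 level in Col-0 (vertical, error bars are SD, 3 arrays each) at 0, 1, 3 and 6 days of darkening (horizontal) for the rows with the 10 largest rises and the 10 largest falls at day 1. Coloured lines are the 3 rows that went back by at least 2 from day 1 to day 3: row 13498760 (10.44 to 8.12), row 13468344 (5.59 to 9.52) and row 13423234 (3.98 to 8.43). The other rows stayed nearer to their day 1 level.

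The pif5 arrays in light and at day 1 share no array with the Col-0 contrast. Both contrasts rest on the same estimate of the spread of each row, so calls in the 2 genotypes are not from separate tests. In pif5, 16.7% of all rows were higher and 18.4% lower at day 1 (limma, adjusted p under 0.05). Of the 1223 rows at least 2-fold higher in Col-0, 1149 or 93.9% also rose in pif5 and 1 fell. Of the 1898 at least 2-fold lower rows, 1863 or 98.2% also fell and none rose. All 84 rises and 136 falls of at least 8-fold passed in pif5 in the same direction. Of the changes of under 1.5-fold, 45.9% of the 2340 rises and 55.0% of the 1536 falls passed in pif5, while 91.5% and 93.5% had the same sign there. Of the 1257 rises from under 4 in light 44.6% passed in pif5, and of the 211 falls 26.1%. The pif5 shares over all rows are not those of this band, which were not counted. In Col-0, 10.7% of all rows under 4 rose and 1.79% fell. Taken from the other side, Col-0 shared 78.3% of the 4446 rows higher in pif5 and 82.9% of the 4902 lower rows.

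Median changes lay close together in the 2 genotypes. Among the at least 2-fold rises the median in Col-0 was 1.40, beside 1.23 in pif5. Among the falls it was -1.50 in Col-0, beside -1.40 in pif5. Choosing rows on Col-0 favours a larger change there. The difference between the changes passed at 229 rows, 0.858% of the table (limma interaction term), and 86 of these were among the 1223 rises and 37 among the 1898 falls. Leaving out 1 of the 12 arrays moved the count of 229 to between 129 and 300. It was 129 without Col-0 light replicate 2, 132 without pif5 day 1 replicate 2, 140 without pif5 light replicate 3 and 152 without pif5 light replicate 1.

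Among the 20 rows with the largest changes 1 differed between the genotypes. Row 13498760 rose by 4.98 in Col-0 and by 2.41 in pif5 (difference 2.57 ± 0.40, SE; limma adjusted p = 0.00067). The other 9 rises were between 4.31 and 6.22 in pif5, and the 10 falls between -6.08 and -4.01. The largest differences among called rises were at row 13496789 and row 13398143. Row 13496789 rose from 3.94, 4.13 and 3.60 to 8.37, 8.40 and 7.88 in Col-0. In pif5 it rose from 3.95 ± 0.24 to 5.27 ± 0.29 (SD, n = 3 each). Row 13398143 rose from 4.10, 4.43 and 4.25 to 8.50, 8.96 and 8.46 in Col-0. Its pif5 levels went from 4.04 ± 0.17 to 5.68 ± 0.17. Both started at about the same level in the 2 genotypes and passed in each, with the smaller rise in pif5.

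Among called falls row 13519611 went from 9.89, 10.08 and 9.98 to 6.71, 6.95 and 5.78 in Col-0. The pif5 levels were 10.25 ± 0.21 and 8.89 ± 0.29 (SD, n = 3 each). Row 13344956 went from 7.15, 7.31 and 6.84 to 5.70, 5.88 and 4.77 in Col-0 (change -1.65 ± 0.31, SE; limma adjusted p = 6.3e-05). In pif5 it stood at 7.07 ± 0.23 in light and 7.18 ± 0.34 at day 1 and did not pass (change 0.11 ± 0.31, SE; limma adjusted p = 0.84). The difference at row 13344956 was -1.76 ± 0.43 (SE; limma adjusted p = 0.046) and did not pass in 10 of the 12 fits that each left out 1 array, among them the fit without Col-0 day 1 replicate 3, with -1.41 (limma adjusted p = 0.13). In both rows that replicate was the lowest. Both were lower still in Col-0 at day 6, at 3.61 ± 0.19 and 3.19 ± 0.18.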

How the data were processed

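Total RNA from leaves was measured on single-colour arrays after labelling as biotinylated cRNA, per the labels' protocols. The deposited table holds log2 values for 26676 rows, which the authors had already summarised. Per the submitters' processing notes the authors used oligo. How they corrected background, normalized and summarised is not given in the sources used. The main test took the values as deposited. Groups came from the sample titles. All 26 arrays in 9 groups entered 1 fit in limma 3.58.1 (R 4.3.3) with lmFit, contrasts.fit and eBayes, leaving 17 residual degrees of freedom. P-values were adjusted over all rows by the Benjamini-Hochberg method, and rows under 0.05 were called. The fit was checked on simulated arrays, where small changes were recovered less often than large ones. Far fewer rows were changed there than were called in the data, which makes the adjusted threshold stricter. The counts of small changes may be incomplete, but the simulation does not measure by how much.

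The rows in the text follow 1 rule: the 10 largest rises and 10 largest falls among called rows whose groups did not overlap, the largest rise and fall per band of starting level, the 3 highest rows not past the threshold, the 2 largest SDs per group, and the 2 rises and 2 falls that differed most from pif5. The rule, the members and the gene lists were chosen with earlier results of these data known. Alternatives were quantile normalization, median centring, leaving out low rows, the 6 Col-0 arrays alone, an intensity trend, a replicate block and leaving out each array. The number of arrays limits the precision.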

Additional observations from a re-analysis of the deposited data

Results flagged for a closer look

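In 5 of the rows named above, among the 229 that passed over the table, the change of the first dark day differed between Col-0 and pif5 as tested by an interaction term in limma. The rise of row 13496789 was larger in Col-0 by 3.00 ± 0.26 (SE; limma adjusted p = 9.6e-08), that of row 13398143 by 2.74 ± 0.22 (limma adjusted p = 3.5e-08) and that of row 13498760 by 2.57 ± 0.40 (limma adjusted p = 0.00067). The Col-0 change minus the pif5 change was -2.15 ± 0.39 at row 13519611 (limma adjusted p = 0.0037) and -1.76 ± 0.43 at row 13344956 (limma adjusted p = 0.046), both falls in Col-0. The difference at row 13344956 was not firm: with 1 of the 12 arrays left out it lay between -1.97 and -1.41, and it passed in only 2 of those 12 fits (limma adjusted p from 0.036 to 0.13). The other 4 differences passed in all 12. Of the 5 rows, 4 (13496789, 13398143, 13519611 and 13344956) were chosen for this difference among called rows, which favours a large value. The cause of the differences was not tested.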

How the results depend on the processing

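The counts of higher, lower and at least 2-fold changed rows stayed within 1.5 times of their values under every alternative run. Higher and lower rows numbered 5283 and 4783 with quantile normalization, 5050 and 5112 with arrays centred on their medians, and 4750 and 4741 in a fit of the 6 Col-0 arrays. Leaving out 1 array gave 4549 to 4776 higher and 4666 to 4754 lower rows. Rises made up 39.2% of the at least 2-fold changes, and 44.5% with quantile normalization. With the replicate block, added to the 6 arrays, 4788 rows were higher and 4810 lower, both more than without the block. The labels do not say that a number marks a shared plant or day, so the numbers are not taken as pairs. Deviations of same-numbered arrays correlated with 0.00, 0.04 and 0.09, and those of other-numbered arrays with -0.06 to 0.03. These values do not settle whether the numbers mark pairs. The count of rows whose change differed from pif5 ran from 129 to 300 with 1 array left out. Counts set beside pif5 were tried under alternatives chosen after seeing the data. In the day 1 change of the named rows, rows 13399154, 13455961 and 13391347 crossed the threshold under an alternative and none changed sign while called. Among the 5 named differences from pif5, tried under alternatives chosen after seeing the data, that of row 13344956 alone crossed it, in 10 of the 12 fits with 1 array left out. No scan batch is stated in the labels, and changes of well under 2-fold are those that 3 arrays a group decide least firmly.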

Other observations

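Rows 13342573, 13377369 and 13416526 held identical values on all 26 arrays, to 6 decimals, with means of 5.40 in light and 5.96 at day 1 (limma adjusted p = 0.13). They count as 3 in the totals above. No other rows were identical.

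The shares of called rows lay close for rows with and without a listed gene. Of the 16179 rows listed with 1 gene 37.5% were called at day 1 and 11.4% changed at least 2-fold, with a median level of 4.27 in light. Of the 9909 rows with no listed gene 39.3% were called and 12.1% changed at least 2-fold, with a median level of 4.37. Of the 588 rows listed with several genes 39.6% were called.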
